A study of Mus musculus with 6 samples.

Results

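Vessels of the irradiated intestine were read through 10 genes of endothelial cells: the receptors Eng, Robo4, Kdr, Flt1, Tek and Tie1, the secreted ligand Angpt2, and the adhesion proteins Pecam1, Cdh5 and Esam. They are 10 of the 19057 genes that the arrays name, and all 10 had a probe. The set was selected on these arrays, because Eng, Robo4 and Angpt2 had lower signals with free ubiquitin (free Ub) than with PBS, and the other 7 were added as known genes of the same cells. The contrast between free Ub and PBS therefore chose the members, and their values in it are given as a description without a test.

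The study asked how free Ub, given to mice as a protein, changes transcripts of the intestine after radiation. Male mice, C57 with no substrain and 4 weeks old by the sample labels, all received 7 Gy to the total body. Intestinal RNA of 3 samples from mice given PBS and 3 from mice given free Ub was hybridized, each to 1 array, and the labels place the collection 3.5 days after radiation and the treatment after it. The paper gives an earlier collection in a figure legend, older mice in its methods and an injection before radiation, so time, age and order are not settled. No unirradiated intestine was on the arrays, and the labels name neither the segment nor whether each sample is a separate mouse, so the spread between samples may be partly technical.

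Endothelial cells line all blood vessels, and in the villus they carry away absorbed nutrients. The VEGF receptors Kdr and Flt1 control their growth. Tek and its relative Tie1 bind or modulate the angiopoietin signal, in which Angpt2 loosens and Angpt1 steadies the vessel wall. Eng, endoglin, is a co-receptor for BMP9 and other ligands of the TGF-β family. Robo4 is a receptor that keeps vessels tight, and Cdh5 (VE-cadherin), Pecam1 and Esam hold neighbouring endothelial cells together. In bulk tissue such as this, fewer endothelial cells and less RNA per cell cannot be told apart.

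On the whole arrays, 32.2% to 33.7% of the probes were at the floor of their array, that is within 0.01 log2 of the lowest value. The correlation between any 2 arrays was at least 0.958 over the 11923 genes above the floor on all 6. Markers of intestinal epithelium were present, 11 of 12 above the floor on every array, with the lectin Lgals4 at 14.02 ± 0.13 with PBS and 14.17 ± 0.11 with free Ub (mean log2 signal ± SD, n = 3 per group, as for all values given in this form). Over the 19057 genes, 11 passed an adjusted p under 0.05 in limma (0.0577%).

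The co-receptor Eng was read by 1 probe. Its log2 signals with PBS were 6.07, 5.88 and 5.92, and with free Ub 5.28, 5.22 and 5.68. Every free Ub sample lay below every PBS sample, with a gap of 0.19 between the groups. The means were 5.95 ± 0.10 and 5.39 ± 0.25, a signal 1.47-fold lower with free Ub.

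Robo4 read 7.64, 7.71 and 7.97 with PBS and 7.11, 7.50 and 7.34 with free Ub. The groups did not overlap here either, with a gap of 0.14, and free Ub replicate 1 was the lowest. The means of 7.77 ± 0.18 and 7.31 ± 0.20 differ 1.37-fold.

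Angpt2, the ligand that destabilizes vessels, had 6.28, 6.35 and 6.02 with PBS against 5.43, 5.44 and 5.87 with free Ub. Free Ub replicates 1 and 2 were nearly equal and replicate 3 lay between them and the PBS samples. The means were 6.22 ± 0.17 and 5.58 ± 0.25, 1.55-fold lower with free Ub, and the gap was 0.15.

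Flt1, the VEGF receptor that also acts as a decoy for the ligand, was the only one of the 7 added genes whose groups did not overlap. It had 7.30, 7.37 and 7.82 with PBS and 6.97, 7.18 and 7.10 with free Ub. The PBS samples spread more widely than the free Ub samples, because PBS replicate 3 stood above the other two. The means were 7.49 ± 0.28 and 7.08 ± 0.11, a signal 1.33-fold lower, and the difference of -0.41 log2 became -0.25 without PBS replicate 3.

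**Figure D1:**
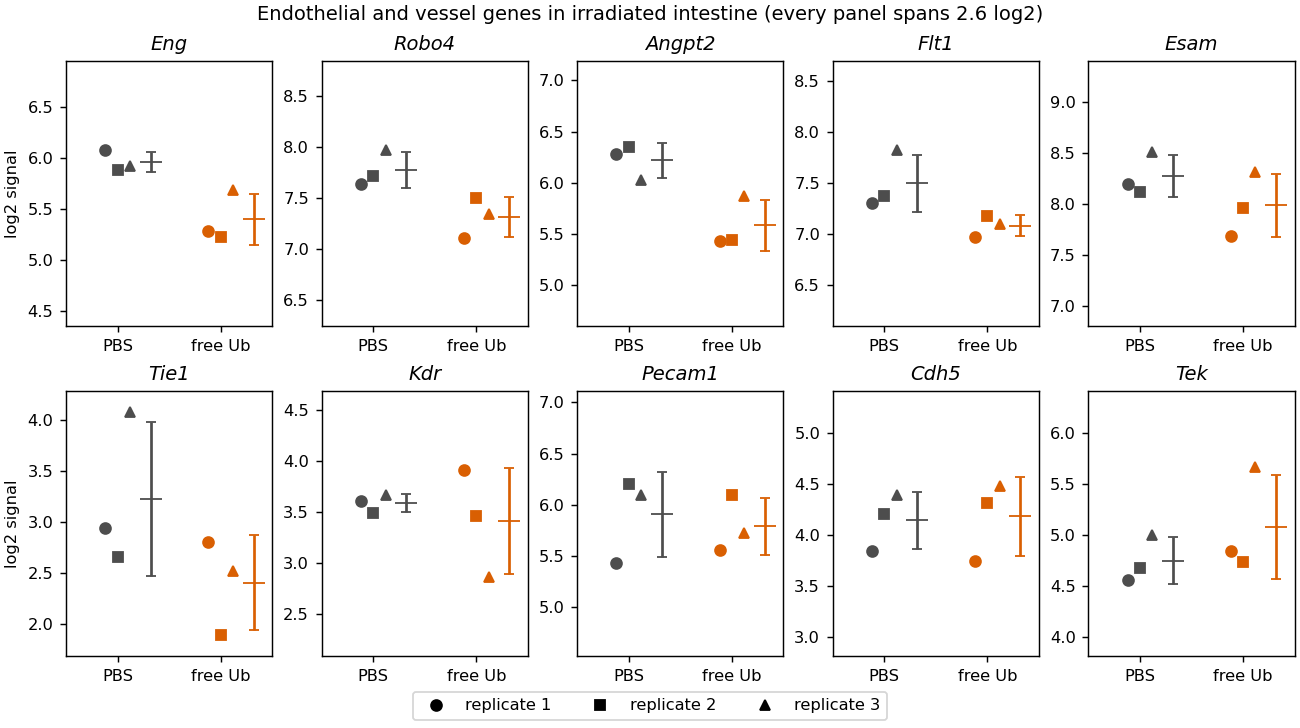
log2 signal of the brightest probe of each of the 10 genes in the 3 PBS and 3 free Ub samples. Symbols are samples, horizontal ticks with bars are the mean ± SD, and all panels have axes of the same length. Eng, Robo4, Angpt2 and Flt1 have all 3 free Ub samples below all 3 PBS samples, while the groups of the other 6 genes overlap.

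Promoters of Eng, Robo4 and Flt1 are printed because these are the genes with non-overlapping groups for which RefSeq promoter sequence was at hand. Each runs 5′ to 3′ on the strand of the gene, from 250 bases before the gene's start to 50 after it, in GRCm38.p6. Eng lies on the plus strand of chromosome 2 (chr2:32646345-32646644), Robo4 on the plus strand of chromosome 9 (chr9:37401722-37402021) and Flt1 on the minus strand of chromosome 5 (chr5:147725962-147726261). Capitals mark GGAA, the core that transcription factors of the ETS family bind in many endothelial genes, on either strand (TTCC).
Eng: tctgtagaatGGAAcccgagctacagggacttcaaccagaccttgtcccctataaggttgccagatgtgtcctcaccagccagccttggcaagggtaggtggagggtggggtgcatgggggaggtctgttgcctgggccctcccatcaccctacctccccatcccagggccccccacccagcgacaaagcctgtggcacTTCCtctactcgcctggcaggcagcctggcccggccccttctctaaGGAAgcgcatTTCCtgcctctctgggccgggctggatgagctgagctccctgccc
Robo4: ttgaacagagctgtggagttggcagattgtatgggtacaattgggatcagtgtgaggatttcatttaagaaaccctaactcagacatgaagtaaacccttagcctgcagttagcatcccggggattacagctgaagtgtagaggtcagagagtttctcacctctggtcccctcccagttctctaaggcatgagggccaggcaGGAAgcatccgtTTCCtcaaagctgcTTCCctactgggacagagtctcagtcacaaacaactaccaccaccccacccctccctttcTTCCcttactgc
Flt1: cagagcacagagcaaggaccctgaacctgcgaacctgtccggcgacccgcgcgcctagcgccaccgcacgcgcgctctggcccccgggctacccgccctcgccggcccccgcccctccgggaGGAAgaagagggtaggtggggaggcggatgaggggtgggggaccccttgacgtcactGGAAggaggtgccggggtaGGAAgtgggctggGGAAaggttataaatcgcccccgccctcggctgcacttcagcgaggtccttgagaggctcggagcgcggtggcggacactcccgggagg

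Each of these 3 promoters holds 4 matches of GGAA, where the median of 32851 promoters of the same length is 3 and 96% hold at least 1. The longer form AGGAAG, which contains GGAA, was found in Eng, Robo4, Flt1 and Tie1, that is in 4 of the 6 members with a promoter sequence, and in 35.4% of all promoters. Tie1 had the most GGAA matches (9), Kdr had 5 and Tek had 2. A TATA box (TATAAA, 13.6% of all promoters) stood in Flt1 alone, and a GC box (GGGCGG, 35.7%) in Flt1 and Kdr. Both strands were searched also for CGGAAG (16.9% of all promoters), found in Tie1, and for AGATAA, a form of the GATA site (11.2%), found in Tek. The promoter with the TATA box, Flt1, had a GC content of 70.7%, that of Robo4 50.3%, and the median of all promoters was 52.7%. These matches are letters in a window and do not show binding.

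Of the adhesion proteins, Esam had lower values in the free Ub group with overlap and the other 2 had close means. Esam had 8.20, 8.12 and 8.51 with PBS and 7.69, 7.96 and 8.31 with free Ub. Free Ub replicate 3 lay within the PBS range, and the other 2 free Ub samples lay below it. The difference of -0.29 (8.28 ± 0.21 and 7.98 ± 0.31) was -0.14 without free Ub replicate 1 and -0.17 without PBS replicate 3.

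Pecam1, which marks endothelium but is also made by platelets and leukocytes, had 5.43, 6.20 and 6.09 with PBS and 5.55, 6.09 and 5.72 with free Ub. Its lowest sample was PBS replicate 1, and the difference of -0.12 was smaller than the pooled SD of 0.35. Cdh5, the adherens junction cadherin of endothelium, had 3.84, 4.21 and 4.39 with PBS and 3.75, 4.32 and 4.48 with free Ub. The difference between its means was 0.04, with a pooled SD of 0.34. With a sample left out the difference of Pecam1 ranged from -0.36 to 0.03 and that of Cdh5 from -0.12 to 0.26. In both genes the sign of the difference depended on which sample was left out.

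The groups of the other receptors overlapped. Tek, the receptor of the angiopoietins, had 4.56, 4.67 and 5.0 with PBS and 4.84, 4.73 and 5.66 with free Ub. It had the largest difference towards free Ub of the 10 genes (0.34), which was 0.05 without free Ub replicate 3. Tie1, its partner receptor, had 2.94, 2.66 and 4.08 with PBS and 2.80, 1.89 and 2.52 with free Ub. Its difference of -0.83 is the largest of the set in size but was -0.40 without PBS replicate 3, and with values under 4 raised to 4 log2 it was -0.03.

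Kdr, the main VEGF receptor of endothelium, had 3.61, 3.49 and 3.67 with PBS and 3.91, 3.46 and 2.87 with free Ub. Its highest and its lowest sample were both free Ub samples, and the difference of -0.18 was 0.09 without free Ub replicate 3. Within the VEGF receptor pair the groups were apart for Flt1 and overlapped for Kdr, and whether the 2 receptors differed in response was not tested.

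Together, 8 of the 10 genes had a lower mean with free Ub and 2, Cdh5 and Tek, a higher one. The median difference was -0.35 log2, and -0.21 without PBS replicate 3. Over all 11923 genes above the floor on every array, 53.9% had a lower mean with free Ub and the median difference was -0.03. The groups did not overlap in the lower direction for 4 of the 10 members, beside 6.27% of the 11923 genes, and in the higher direction for 0, beside 4.45%. Counted by limma's unadjusted p under 0.05, 3 were lower, beside 3.33% of the 19057 genes, and these were Eng, Robo4 and Angpt2, the genes that led to the choice of the set. Without free Ub replicate 1 this count was 1. In the higher direction the count was 0, beside 2.24%. No member passed an adjusted p under 0.05, beside 11 of the 19057 genes. No member passed the study's threshold of a fold change above 2 with p under 0.05, beside 436 of the 19057 genes.

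**Figure D2:**
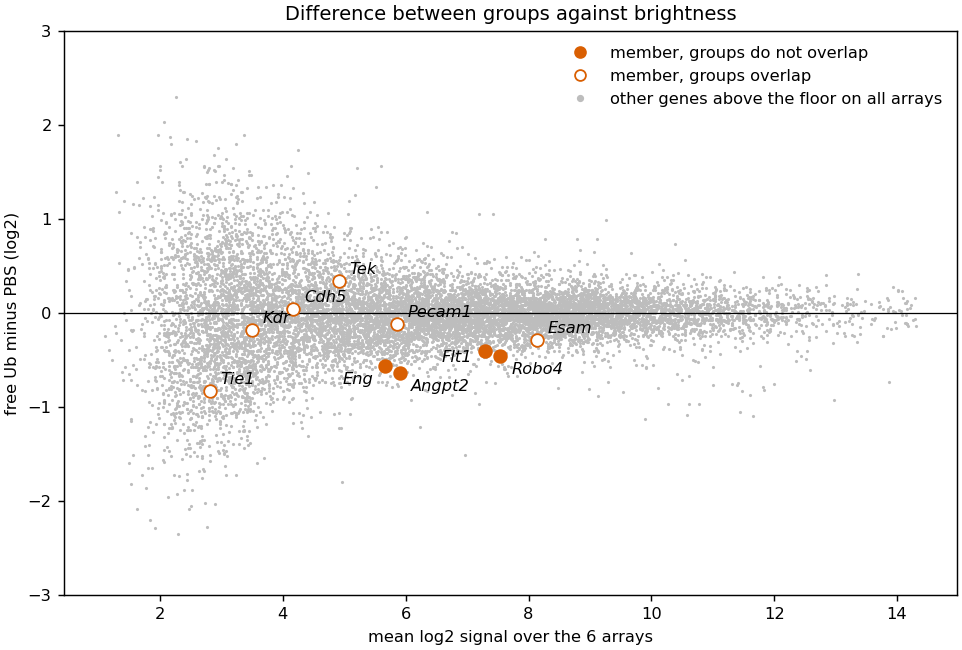
Difference in mean log2 signal (free Ub minus PBS) against the mean log2 signal over the 6 arrays, for the 11923 genes above the floor on all arrays (grey) and the 10 endothelial and vessel genes (orange). Filled circles are the 4 genes with non-overlapping groups, which lie between -0.41 and -0.64. Tie1 and Kdr lie among dim genes, whose differences scatter more widely.

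The 8 members with a mean above 4 log2 had a median pooled SD of 0.24, where the 8856 genes as bright had 0.23. Among these 8856 genes the lowest 5% had a difference of -0.43 or less, and Eng, Robo4 and Angpt2 lay beyond that value while Flt1 lay just inside it. Eng, Robo4 and Angpt2 were chosen for lower signals with free Ub, so their place there follows in part from the choice. All 10 members were above the floor on every array, Tie1 and Kdr with means below 4.

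The 6 genes with several probes showed how far the result rests on 1 probe per gene. The 10 genes have 19 probes, and of the 9 that are not a gene's brightest, 8 were at the floor on at least 1 array. The other 3 probes of Robo4 were at the floor on all arrays but for 2.07 in free Ub replicate 3 on one of them. The second probe of Angpt2 was above the floor only in free Ub replicate 3 (1.93), and that of Kdr only in free Ub replicate 1 (1.52). The second Flt1 probe read 2.18, 0.04 and 0.00 with PBS and 0.00, 2.21 and 3.52 with free Ub. None of these 4 genes therefore had a second probe with a measured value on every array.

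Pecam1 had 2 further probes that were lower with free Ub in the mean, by 0.97 and 1.39 log2, each with 1 array at the floor and overlapping groups. The second probe of Cdh5, above the floor on all arrays, had 3.38 ± 1.05 and 3.58 ± 0.29, a difference of 0.20 with the same sign as the brightest. When each gene was taken as the mean of its probes, 4 of 10 members were lower and the median difference was 0.03. In that form Robo4 (0.06), Angpt2 (0.00) and Flt1 (0.38) were no longer lower, and Kdr (0.16) was higher in the mean. Pecam1 went the other way, from -0.12 to -0.83, and Eng, which has 1 probe, was unaltered.

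**Figure D3:**
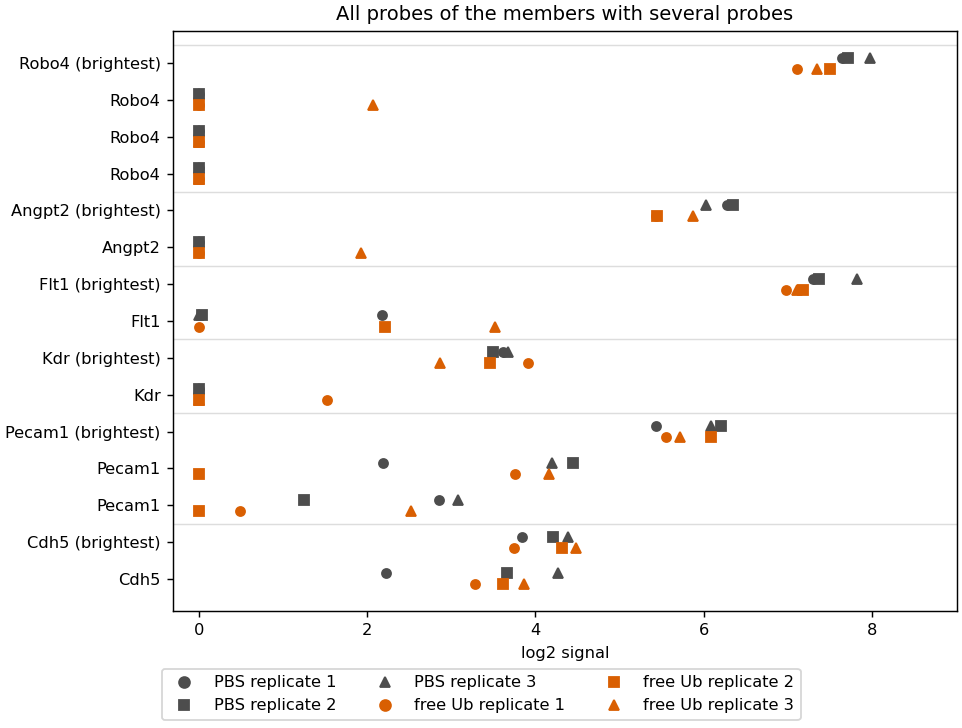
log2 signal of every probe of the 6 members with more than 1 probe, in the 3 PBS (grey) and 3 free Ub (orange) samples. For Robo4, Angpt2, Flt1 and Kdr the other probes lie at or near 0 on most arrays, and isolated values above it come mainly from free Ub samples.

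The samples did not contribute equally. Free Ub replicate 1 was the lowest of the 6 samples in 5 members (Robo4, Angpt2, Cdh5, Flt1 and Esam) and free Ub replicate 2 in Eng and Tie1. PBS replicate 3 was the highest in 4 (Robo4, Flt1, Tie1 and Esam). As the median over the 10 genes of the signal minus the gene's PBS mean, the PBS samples had -0.16, -0.07 and 0.22 and the free Ub samples -0.48, -0.30 and -0.31. On this measure the groups did not overlap, and the nearest values were -0.16 for PBS replicate 1 and -0.30 for free Ub replicate 2. The median includes Eng, Robo4 and Angpt2, which were chosen for lower signals with free Ub, so this separation is no separate result.

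Other markers of endothelial cells, a list of 26 genes written by hand without the 10 members, were lower in the mean for 18, higher for 6 and at the floor on all arrays for 2. Among the 19 above the floor on every array, 15 were lower and the median difference was -0.31, or -0.21 without free Ub replicate 1 and -0.48 without free Ub replicate 3. The groups of 5 of these 19 did not overlap, all in the lower direction: Vwf, Plvap, Nos3, Emcn and Adgrl4, of which Plvap, Nos3 and Emcn are named after their values were seen. Over all genes above the floor the share without overlap was 6.27% in the lower direction and 4.45% in the higher. The list was written with earlier results of these data known, so its counts are a description and no independent support for the members. The identity list had 0 genes with an unadjusted p under 0.05 in limma, in either direction, and 0 after adjustment.

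Vwf, the clotting factor that endothelium stores, had 6.85, 6.51 and 6.82 with PBS and 5.24, 6.35 and 6.11 with free Ub (limma, adjusted p = 0.878). Plvap, the diaphragm protein of fenestrated capillaries such as those of the villus, had 9.29, 8.94 and 9.68 with PBS against 8.60, 8.92 and 8.82. Emcn, the sialomucin of capillaries and veins, had 7.73 ± 0.18 and 7.53 ± 0.02. Nos3, the endothelial nitric oxide synthase, had 4.89 ± 0.09 and 4.20 ± 0.55, and the adhesion receptor Adgrl4 5.77 ± 0.06 and 5.40 ± 0.25. The gap between the groups was 0.02 for Plvap, 0.04 for Adgrl4 and 0.07 for Emcn, against 0.12 for Nos3 and 0.16 for Vwf. Cldn5, the claudin of endothelial tight junctions, went the other way, with 2.93, 1.41 and 3.89 with PBS and 4.16, 3.80 and 4.26 with free Ub.

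Transcription factors of the endothelial lineage were evenly divided, with 12 of 22 lower and 10 higher in the mean. The 4 that were lower at an unadjusted p under 0.05 in limma were Klf2, Elk3, Erg and Foxc2, and 0 were higher. Klf2, which blood flow induces in endothelium and which T cells also make, had 6.34, 5.96 and 6.37 with PBS and 5.15, 5.90 and 5.56 with free Ub (limma, adjusted p = 0.873). The ETS family member Elk3 had 3.19 ± 0.51 and 2.32 ± 0.04. Erg, the ETS factor that maintains endothelial identity, had 3.59, 2.64 and 1.26 with PBS and 0.94, 1.01 and the floor value with free Ub. Foxc2, a forkhead factor of lymphatic vessels and arteries named after its values were seen, had 3.09, 3.21 and 3.51 in the PBS group and lay at the floor on 2 of 3 free Ub arrays. Erg, Elk3 and Foxc2 are dim, so the size of their differences is poorly measured. Sox18, an SRY-related factor of vessels, had 6.30 ± 0.27 and 5.79 ± 0.51 with overlapping groups. The median of the 14 factors above the floor was -0.02 over all samples. It was -0.24 without PBS replicate 1 and -0.10 without free Ub replicate 3, but 0.08 without PBS replicate 2, 0.04 without PBS replicate 3 and 0.09 without free Ub replicate 1, so its sign depended on the sample left out.

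Around the VEGF receptors, Vegfa, the main ligand, had 8.46 ± 0.25 and 8.68 ± 0.11. Vegfc, the ligand of lymphatic growth, was lower in all free Ub samples, with 4.80, 5.08 and 5.28 with PBS against 4.23, 4.76 and 4.67. Vegfb, which acts through Flt1, had 6.82 ± 0.14 and 6.46 ± 0.22, the free Ub value of 6.68 in replicate 3 reaching the lowest PBS value of 6.67. Nrp2, a co-receptor for VEGF and semaphorins, was higher in all free Ub samples (2.80 ± 0.19 and 3.45 ± 0.26; limma, adjusted p = 0.770). Of the 8 genes of this axis 5 were lower and 3 higher.

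Around the angiopoietins, Angpt1, the ligand that activates Tek, had 1.38, 1.88 and 3.98 with PBS and 1.37, 2.19 and 1.61 with free Ub. One PBS sample, replicate 3, stood far above the other 5 samples. Angptl4, a lipoprotein lipase inhibitor of the related angiopoietin-like family, had 7.53, 6.28 and 6.88 with PBS and 7.98, 8.50 and 7.36 with free Ub. The groups overlapped at 7.36 and 7.53. Of 6 genes with a probe 3 were lower and 3 higher. Among the 5 above the floor on all arrays 2 were lower and 3 higher, with a median difference of 0.52.

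Around Eng, the BMP and TGF-β genes were divided, with 10 lower and 12 higher of 24. Acvrl1, the type I receptor with which Eng acts, had 2.85, 3.92 and 4.27 with PBS and 3.43, 2.74 and 2.98 with free Ub. The ligand Gdf2 (BMP9) was at the floor on 3 of 6 arrays. Smad1, which carries the BMP signal, had 8.50 ± 0.10 and 8.56 ± 0.14, and Id1, a target of it, 9.81 ± 0.24 and 9.94 ± 0.04. Smad3 was lower and the BMP receptor Bmpr1a higher in every free Ub sample, with 8.91 ± 0.12 against 8.62 ± 0.15 and 6.65 ± 0.25 against 7.09 ± 0.24 (limma, adjusted p = 0.878 for each). Tgfb3, named after its values were seen, was the 1 gene of this list at an unadjusted p under 0.05, in the higher direction (1.13 ± 1.10 and 2.95 ± 0.62, with 1 PBS array at the floor). The groups of Smad1 and Id1 overlapped.

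Around Robo4, the ligand Slit3 had 3.80 ± 0.08 and 3.78 ± 0.09, Slit1 was at the floor on all arrays, and Unc5b, a netrin receptor that Robo4 can bind, had 6.77 ± 0.23 and 7.06 ± 0.30. No gene of this axis reached an unadjusted p under 0.05, and 0 of 4 above the floor had non-overlapping groups.

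Around the junction proteins, 8 of 16 genes were lower and 8 higher. Jam2, a junctional adhesion molecule of endothelium, had 4.42, 4.15 and 4.01 with PBS and 3.44, 3.61 and 3.05 with free Ub. Its groups were apart by a gap of 0.40, wider than that of any of the 10 members (limma, adjusted p = 0.727). Jam2 is dim, with a mean of 3.78 over the arrays, so the size of this gap is poorly measured. It was the 1 gene of this list with an unadjusted p under 0.05.

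Of the vascular Notch genes, both receptors that endothelium uses were lower. Notch4, which is largely endothelial, had 6.76, 6.56 and 7.07 with PBS and 6.25, 6.38 and 6.30 with free Ub. Notch1, which crypt cells and lymphocytes also make, had 6.34, 6.38 and 6.14 against 5.41, 5.86 and 5.99. Neither pair of groups overlapped, and both passed an unadjusted p under 0.05 but not the adjustment (limma, adjusted p = 0.823 and 0.860). The target Heyl was higher, with 1.60 ± 0.81 and 3.23 ± 0.28 and a gap of 0.59 between the groups. It too passed an unadjusted p under 0.05 but not the adjustment (limma, adjusted p = 0.771). Heyl is dim, with a mean of 2.42 over the arrays, so the size of its difference is poorly measured. The ligand Dll4 was at the floor on 3 arrays.

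Among genes of sprouting tip cells, 8 of 15 were lower and 7 higher. Esm1, a proteoglycan of tip cells, had 8.08, 8.14 and 8.05 with PBS and 7.96, 7.66 and 7.82 with free Ub (limma, adjusted p = 0.867). Adm, the vessel peptide adrenomedullin, named after its values were seen, was higher at an unadjusted p (0.94 ± 1.54 and 3.35 ± 0.72, with 1 PBS array at the floor). The basement membrane collagen Col4a1 had 8.98 ± 0.25 and 8.69 ± 0.19. The list for endothelial activation holds adhesion molecules and also genes of clotting and vessel tone. In it Ptgis, the prostacyclin synthase, had 5.71, 5.34 and 4.96 with PBS and 4.26, 4.67 and 4.71 with free Ub (limma, adjusted p = 0.823). The adhesion molecule Vcam1 had 5.95 ± 0.18 and 5.98 ± 0.46, and the anticoagulant receptor Thbd 5.58 ± 0.48 and 4.67 ± 0.57. In this list of 10 genes above the floor the median difference was -0.21, and it was 0.09 without free Ub replicate 1 and -0.33 without free Ub replicate 2.

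The FGF2 and CXCR4 axis that the study follows gave few measured values on these arrays. Fgf2 was at the floor on all 6 arrays, and Cxcr4, the receptor of free Ub, at the floor on 3, with 2.63 in PBS replicate 3 and 1.56 and 1.15 in free Ub replicates 1 and 2. Cxcl12, its chemokine ligand, had 7.42, 7.26 and 7.89 with PBS and 6.85, 7.12 and 7.55 with free Ub, with overlapping groups. Fgfr1, the receptor that the paper follows, was at the floor in PBS replicates 1 and 2. It had 3.86 in PBS replicate 3 and 3.34, 3.26 and 0.65 with free Ub. Fgfr2, an FGF receptor mainly of epithelium, had 8.78 ± 0.13 and 8.70 ± 0.17.

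Over all 13 vessel lists, 169 genes other than the members had a probe. In limma 9 were lower and 4 higher at an unadjusted p under 0.05, which is 5.33% and 2.37% of them beside 3.33% and 2.24% of all genes tested, and 0 passed an adjusted p under 0.05. Of the 119 above the floor on all arrays, 14 had non-overlapping groups in the lower direction and 3 in the higher, 11.8% and 2.52% beside 6.27% and 4.45% of all genes above the floor. The median difference of these 119 genes was -0.08 and 59.7% were lower, beside -0.03 and 53.9% of all genes above the floor. The lists were written with earlier results of these data known, so these shares are a description. Smad1, Id1, Dll4, Cxcr4 and Fgfr1 were named among the listed genes after their values were seen.

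Markers of the other cells in the tissue were set beside these values. Lymphatic endothelial markers were lower for 7 of 8, with the chemokine Ccl21a at 7.35 ± 0.42 and 6.73 ± 0.34 and the hyaluronan receptor Lyve1 at 5.50 ± 0.45 and 5.35 ± 0.24. Of the 5 above the floor on all arrays 4 were lower, with a median difference of -0.17, and 0 had non-overlapping groups. Pericyte markers were lower for 4 and higher for 5 of 10, with Rgs5 at 5.03 ± 0.62 and 5.19 ± 0.25. The sum of linear signals of the pericyte list was 259 to 275 with PBS and 213 to 258 with free Ub. That of the lymphatic list was 544 to 756 and 443 to 659. The sum over the 26 endothelial markers was 1880 to 2550 and 1450 to 1940.

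Smooth muscle markers were higher for 8 of 8, but their sums ranged from 3690 to 10200 among the PBS samples and from 5990 to 6520 among the free Ub samples, and the groups overlapped. The median difference over the 8 was 0.23. Over the 6 above the floor on all arrays it was 0.14, with 0.55 without PBS replicate 1 and -0.24 without PBS replicate 3. Fibroblast markers were lower for 5 of 8 (sums of 3370 to 3970 and 2600 to 4080). Epithelial markers were lower for 7 of 12 (54300 to 65200 and 57800 to 66200), with the intestinal factor Cdx2 lower in every free Ub sample (9.83 ± 0.03 and 9.55 ± 0.13). Markers of leukocytes, which also make Pecam1, were lower for 7 of 10 (2910 to 4120 and 2640 to 3900).

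Platelet markers were lower for 5 and higher for 2 of 8 (112 to 155 and 101 to 134), and Gp9, named after its values were seen, was higher, with 2.63 ± 0.51 with free Ub and 2 PBS arrays at the floor. Red cell markers were lower for 2 and higher for 3 of 5, with the globin Hba-a1 at 9.67 ± 0.53 and 9.55 ± 0.73 and sums of 1060 to 2100 and 1140 to 2560. Of the lists in these last paragraphs, the sums of the 2 groups failed to overlap for pericytes alone, where 258 and 259 were the nearest values. Among the vessel lists given earlier, the sums for endothelial activation were 870 to 925 with PBS and 739 to 812 with free Ub, also without overlap. Those for the angiopoietin list were 171 to 266 and 286 to 439, without overlap in the higher direction. The sum over the 10 members was 895 to 1120 with PBS and 662 to 864 with free Ub, without overlap. It includes Eng, Robo4 and Angpt2, chosen on this contrast, so it cannot be compared with the sums of these lists. The part of other cells in the differences of the 10 members was not tested.

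**Figure D4:**
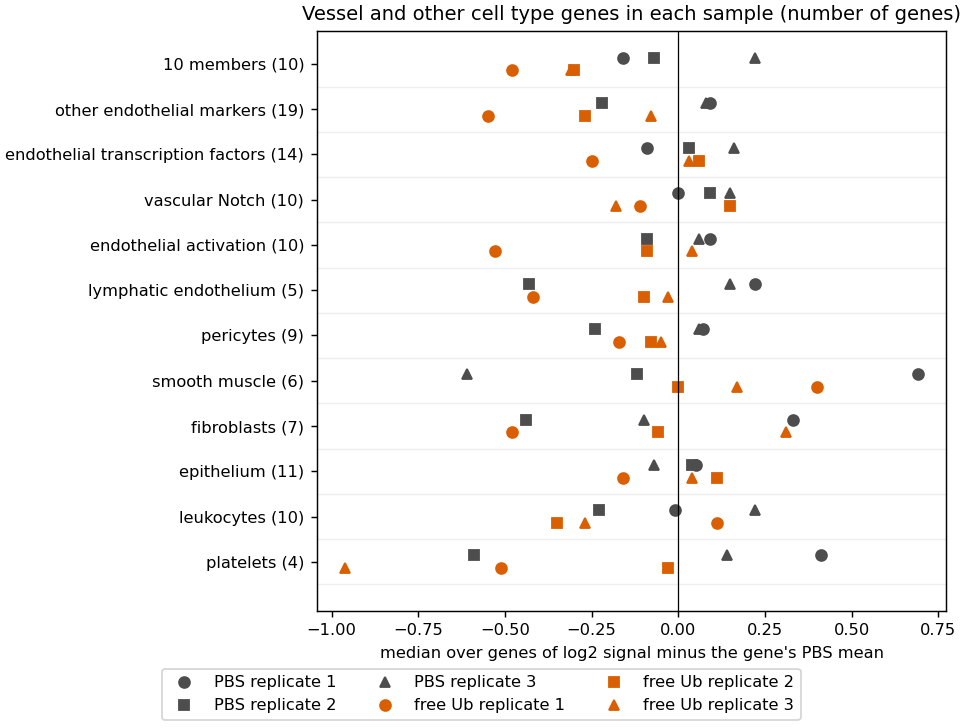
Median, in each sample, of the log2 signal minus the gene's mean in the PBS samples, over the genes of a list above the floor on all arrays (their number in brackets). Grey symbols are PBS and orange symbols free Ub. The 10 members, a set chosen on this contrast, have all free Ub samples below all PBS samples. The other endothelial markers overlap at -0.22 and -0.08, and free Ub replicate 1 has the lowest value in several lists.

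Free Ub replicate 1 had the lowest list median in 6 of the 13 vessel lists, and also the lowest value for fibroblasts (-0.48) and epithelium (-0.16). It had -0.55 for the other endothelial markers and -0.53 for endothelial activation. The highest median belonged to a PBS sample in all 13 lists or to a tie with one. Whether this sample differed in tissue make-up was not tested.

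The genes most like the members over the 6 arrays were sought among 6138 other genes with a mean above 6 log2, by Pearson correlation with the mean of the 8 brighter members centred on their means. Sox18 came first (r = 0.975, rho = 0.943), followed by Polr2h, Hdac4, Sema3f and Ppif, the last with r = 0.969. Sox18 is one of the listed endothelial factors, and its values are given above. Of the 6138 genes 9 had r above 0.95. The mean of the 8 includes Eng, Robo4 and Angpt2, chosen for lower signals with free Ub, so the search favours genes lower with free Ub. With 6 arrays that share the same normalization, likeness of this size is a description only and no separate result.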

How the data were processed

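Intestinal RNA of 6 irradiated mouse samples, 3 given PBS and 3 given free Ub, was hybridized to Illumina MouseWG-6 v2 BeadChips. The authors normalized the raw signals by cubic spline in GenomeStudio (version not given in the sources used here). The deposited values were read as log2 signals, from their range; the log base, background correction and floor are not stated, and low values may depend on them. Of 45281 probes, 34885 carried 1 gene symbol in the platform annotation and 18 several, and the latter were not named. For each of 19057 genes the probe brightest on average across the 6 arrays was used. Groups were compared with limma 3.58.1 in R 4.3.3, with Benjamini-Hochberg adjustment over all 19057 genes and a threshold of 0.05. The fit was tested on simulated data for genes above the floor only, with normal noise set by brightness. That test does not cover genes with values at the floor. The number of arrays limits the precision, and an exact permutation test of 3 against 3 cannot go below p = 0.1.

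The 10 members and the pathway and cell type lists, written by hand from general knowledge, were chosen with earlier results of these data known. Named were the members, the first gene of each list and up to 3 genes per list with the smallest limma p above the floor on all arrays, and the 5 genes most like the members. Alternatives were quantile normalization, median centring, a floor at 4 log2, bright probes only, the mean of a gene's probes, a replicate block, variance trends, array weights, the methods' t-test, each sample left out and, chosen after seeing the data, genes above the floor on all arrays only.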

Additional observations from a re-analysis of the deposited data

How the results depend on the processing

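The differences of Eng, Tek, Tie1 and Esam kept their sign under every alternative run. These are the 4 members with 1 probe, so averaging a gene's probes could not alter them. Samples left out in turn gave -0.70 to -0.47 for Eng, -0.55 to -0.36 for Robo4, -0.78 to -0.56 for Angpt2 and -0.51 to -0.25 for Flt1. With all probes of a gene averaged, Robo4 was 0.06, Angpt2 0, Kdr 0.16, Flt1 0.38 and Pecam1 -0.83, the members' median was 0.03, 4 members were lower and 1 was lower at an unadjusted p; averaging brings in probes at the floor. Samples left out in turn gave -0.12 to 0.26 for Cdh5 and -0.43 to 0.09 for Kdr. Cdh5 was -0.12 without PBS replicate 1, -0.03 without free Ub replicate 2 and -0.11 without free Ub replicate 3. Pecam1 was -0.36 without PBS replicate 1, 0.03 without PBS replicate 2 and 0 without free Ub replicate 1, and Kdr was 0.09 without free Ub replicate 3. Samples left out in turn gave a members' median of -0.44 to -0.21, 7 to 9 members lower, and 1 to 3 lower at an unadjusted p.

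Over all genes, 11 passed the adjusted threshold. There were 0 with values under 4 raised to 4, with bright probes only, with the replicate block, with an intensity trend and robust variances, in the paired t-test with the replicate block, and among genes above the floor on all arrays; there were 6 with the mean of probes, 5 in the methods' t-test without pairing, and 18 to 28 with a sample left out. Genes lower at an unadjusted p, 634 in all, were 357 with values under 4 raised to 4, 383 with bright probes and 394 above the floor on all arrays, where fewer genes were fitted (10499, 12502 and 11923), and 568 to 807 with a sample left out. Those higher, 427, were 259, 232 and 242, and 420 to 631. Vessel list genes higher at an unadjusted p, 4, were 2 with values under 4 raised to 4 and 2 in each t-test, and 1 to 6 with a sample left out; those lower, 9, were 6 to 11. Of the vessel lists 0 to 1 gene passed the adjusted threshold with a sample left out, the 1 being Foxc2 without free Ub replicate 3. Other causes were not tested.

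Same-numbered deviations from the group means correlated at -0.0128, -0.0096 and -0.136 over 11923 genes, and differently numbered ones between -0.103 and 0.112. These values gave no sign that the replicate numbers pair the samples, but with 3 samples per group they cannot exclude it. The paper names a paired t-test for gene expression. With the replicate block 0 genes were called, and Eng and Robo4 remained lower at an unadjusted p; in the paired t-test with the replicate block 0 members did.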
